A study of Homo sapiens with 8 samples.

Results

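Where the progesterone receptor (PR) sat on the genome of T47D A1-2 cells was compared between cells exposed to R5020 and untreated cells. T47D is an established cell line from a human breast cancer, and A1-2 is a derivative of it that, per the series, expresses both the glucocorticoid receptor (GR) and PR. R5020 is a synthetic progestin, given here at 10 nM for 60 min, and untreated cells received no hormone. Both groups were grown in hormone-stripped serum and then starved of serum. PR was recovered with the same antibody in both, by ChIP-seq, in which DNA fragments bound by a protein are precipitated and sequenced. Each condition was 1 library. The compared sites were the peaks called in the PR library after R5020 and in the PR library of untreated cells on chromosomes 1 to 22 and X, without those at peaks of the input DNA of A1-2 cells. That left 28262 PR peaks after R5020 and 630 in untreated cells, 28892 of the 92175 receptor peaks used over the series. Positions are in the hg19 build.

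A PR peak after R5020 that overlapped no untreated PR peak by at least 1 bp is called gained. A peak that overlapped a peak of the other list is called kept, and an untreated PR peak without a PR peak after R5020 is called lost. Sites of these classes were then looked up in the other receptor lists of the series. In A1-2 cells these were GR after R5020, GR after dexamethasone (Dex, a synthetic glucocorticoid, 10 nM for 60 min) and GR without hormone. In T47D MTVL WT cells, which the labels name as the control line, they were PR after R5020 and PR without hormone. The lists hold no marker of cell identity, so the line is taken from its label.

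PR is a nuclear receptor, a transcription factor that is switched on by its ligand. Without ligand it is held in complexes with chaperone proteins. With ligand it dimerises, binds DNA and recruits coregulators. Its DNA-binding domain is closely related to that of GR, and both receptors recognise the same palindromic hormone response element. In breast epithelium PR acts downstream of the estrogen receptor and controls growth and differentiation of the milk-producing lobules.

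Because each condition was sequenced once, differences could not be set against the spread between replicates, and no p-values were computed. Intervals are exact (Clopper-Pearson) 95% intervals over peaks, which reflect counting error alone. Read depth is unknown, and a deeper library yields more called peaks. The score deposited with each peak is the authors' value. It was read only within its own list, and from 3100 up it no longer ranks sites. No genome or annotation of the hg19 build was used, so sites are named by position, without genes or sequence.

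Nearly all PR regions of A1-2 cells were called only after hormone. Of the 28408 PR regions obtained by merging the lists, 27885 were called only after R5020, 375 in both conditions and 148 only in untreated cells, which is 98.2%, 1.32% and 0.521% of the regions. The list after R5020 was 44.9 times as long as the untreated one, and there were 188 gained peaks for every lost one. Peaks covered 20.4 Mb after R5020 and 0.183 Mb in untreated cells. Of the PR peaks after R5020, 377 were kept ones (1.33%, 1.20 to 1.47). Of the untreated PR peaks, 482 were kept (76.5%, 73.0 to 79.8) and 148 were lost (23.5%, 20.2 to 27.002). In the other line 218 of 219 untreated PR peaks were kept (99.5%, 97.5 to 99.99). A1-2 cells held 148 hormone-free PR peaks without a counterpart after R5020, compared with 1 in MTVL cells. The number in A1-2 cells depended on how a counterpart was defined. It was 112 when R5020 peaks within 1 kb counted as counterparts, 265 when R5020 peaks needed a score of 200 or more, and 353 when midpoints had to lie within 200 bp. Untreated PR peaks were 247.5 bp wide in A1-2 cells and 1242 bp wide in MTVL cells at the median. Whether this difference exceeds that between libraries was not tested.

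The peaks of the untreated library were shorter in every class. Gained peaks had a median width of 644 bp (quartiles 539 and 782). Kept sites had a median width of 912 bp in the R5020 list and 259.5 bp in the untreated list. Lost peaks were 197.5 bp wide at the median. At the 298 kept sites where 1 peak of each list met 1 of the other, the R5020 peak was 3.02 times as wide at the median, and the midpoints lay 79.75 bp apart. Of the 484 overlapping pairs, 465 had the untreated peak wholly inside the R5020 peak, and 7 overlapped by less than 50% of the shorter peak. In 77 cases a single R5020 peak took in 2 or more untreated peaks, 7 at most, which together held 184 untreated peaks. Untreated GR peaks of A1-2 cells were narrow as well, with a median width of 226.5 bp.

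**Figure D1:**
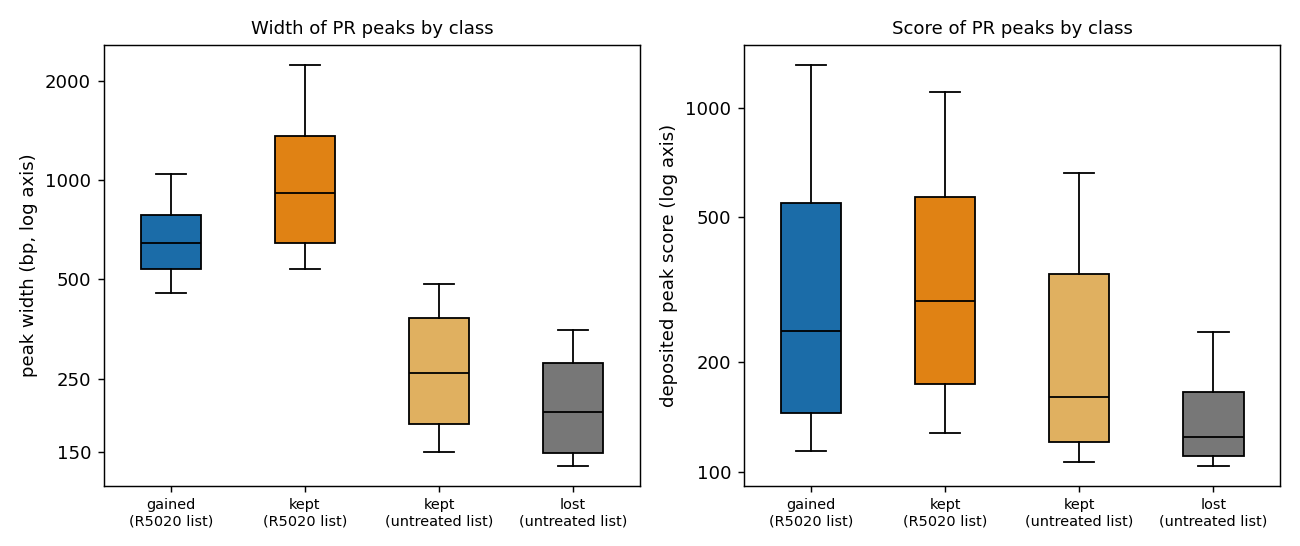
Widths in bp (left) and deposited scores (right) of the gained and kept peaks in the R5020 list and of the kept and lost peaks in the untreated list, on log axes. Boxes span the quartiles with the median as a line, and whiskers reach the 10th and 90th percentiles. Median widths are 644 and 912 bp in the R5020 list and 259.5 and 197.5 bp in the untreated list.

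The sites that R5020 added ranged from weak calls to the strongest of the list. Gained peaks had a median score of 243 (quartiles 145 and 548). Of the 27885 gained peaks, 3828 scored 1000 or more (13.7%, 13.3 to 14.1) and 646 reached 3100. The 5 gained peaks of highest deposited score are named here as examples, since the score does not rank the 646 peaks of 3100 or more. The first lay at chr12:31973653-31974357 (score 3226). It was also called for GR after Dex (score 1237) and for PR in MTVL cells after R5020 (2584), and in no list of untreated cells. The next lay at chr2:105097733-105098465 (score 3216), chr11:85800630-85801310 (3214), chr3:187753850-187755376 (3213) and chr8:133058052-133059809 (3213). All of them were called for GR after Dex and for PR in MTVL cells after R5020, and only that on chromosome 11 was also called for GR after R5020 (score 280). Untreated PR peaks were far away, with 1252340 bp to the nearest one from the site on chromosome 3 and 9207951 bp from that on chromosome 12.

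Most gained sites belonged to sets that other lists also held. Of the gained peaks, 23219 lay at an R5020 PR peak of MTVL cells (83.3%, 82.8 to 83.7), close to the 82.7% of all PR peaks after R5020, of which they are the bulk. A GR Dex peak was present at 13379 (48.0%, 47.4 to 48.6), beside 48.2% of all PR peaks after R5020. Both were present at 11600 gained peaks (41.6%), with a median score of 542. The MTVL peak alone was present at 11619 (41.7%, median score 193), the GR Dex peak alone at 1779 (6.38%, median score 165) and neither at 2887 (10.4%, median score 127). The median score was thus highest for gained sites held by both GR Dex and MTVL PR. For those held by neither it was close to the lowest score of 100.

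At the top of the list the sharing was nearly complete. Among the 646 gained peaks of 3100 or more, 645 lay at a GR Dex peak (99.8%, 99.1 to 99.996) and 643 at an R5020 PR peak of MTVL cells (99.5%, 98.6 to 99.9). The exceptions were named after their values were seen. The peak without GR Dex lay at chr20:3998643-3999765. Those without MTVL PR lay at chr1:177558232-177559369, chr11:70823423-70824709 and chrX:65057805-65059169. Gained peaks in none of the 5 other lists numbered 2820 (10.1%, 9.76 to 10.5), and their median score was 126. The strongest of them lay at chr12:125422999-125423486 (score 850), chr5:92943080-92944005 (677) and chr2:42963418-42964151 (676), also chosen after their values were seen.

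Some of the sites that were hormone-gained in A1-2 cells carried PR without hormone in the control line. Of the gained peaks, 180 lay at an untreated PR peak of MTVL cells (0.646%, 0.555 to 0.747, beside 0.796% of all PR peaks after R5020). Seen from MTVL cells, 166 of their 219 untreated PR peaks lay at a gained A1-2 site (75.8%, 69.6 to 81.3), 39 at a kept one (17.8%, 13.0 to 23.5) and 3 at a lost one. Gained peaks were 98.7% and kept peaks 1.33% of the PR peaks after R5020 in A1-2 cells. A kept peak lay at an untreated MTVL PR peak more often than a gained one did, in 45 of 377 cases (11.9%, 8.84 to 15.6). The 180 gained peaks were strong in A1-2 cells after R5020, with a median score of 1669 compared with 243 for all gained peaks, and 146 of them lay at GR Dex peaks (81.1%, 74.6 to 86.5). The untreated lists of the lines thus differed in place as well as in width.

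Part of the gained sites stood in runs along the chromosomes. With a run defined as at least 5 gained peaks with gaps of at most 20 kb, 730 runs held 5245 gained peaks (18.8%, 18.4 to 19.3). By the same definition, runs held 19.6% of all PR peaks after R5020 in A1-2 cells, 23.3% of those in MTVL cells and 2394 of the 18415 GR Dex peaks. The median gap between neighbouring gained peaks was 31.7 kb. Gained peaks in such runs scored 299.7 at the median, compared with 234 elsewhere, and lay at a GR Dex peak in 54.9% (53.6 to 56.3), compared with 46.4% (45.7 to 47.0) elsewhere. They lay at MTVL PR peaks in 80.3% (79.2 to 81.4) and 83.9% (83.5 to 84.4).

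The runs with the most gained peaks were of different kinds. The first, at chr16:34339876-34783267, held 117 gained peaks, 33 kept ones and 14 lost ones, with 152 GR Dex peaks, 143 GR R5020 peaks and 59 untreated GR peaks, but 3 PR peaks of MTVL cells after R5020 and 0 input peaks. The third, at chr16:35020917-35149346, was alike, with 31 gained peaks, 41 GR R5020 peaks and 0 MTVL PR peaks after R5020. The second, at chr14:95634893-95808211, held 36 gained peaks, 0 kept and 0 lost ones, 30 GR Dex peaks, 1 GR R5020 peak and 28 MTVL PR peaks after R5020, and its median score was 493. The run at chr16:85554235-85787449 held 29 gained peaks, 2 kept ones, 21 GR Dex peaks and 20 MTVL PR peaks after R5020, and that at chr3:193477281-193650537 held 24 gained peaks, 1 kept one, 21 GR Dex peaks and 14 MTVL PR peaks after R5020. A run at chr11:65188433-65314251 also held 24 gained peaks and had 4 kept ones. The regions on chromosomes 14 and 3 and the distal one on chromosome 16 thus held gained peaks and at most 2 kept ones, whereas the block between 34 and 36 Mb of chromosome 16 already held 123 PR peaks without hormone.

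Hormone-free PR sites were crowded in few places. Runs of at least 5 untreated PR or untreated GR peaks of A1-2 cells, with gaps of at most 20 kb, numbered 40 and spanned 1.17 Mb in all. They held 260 of the 482 kept untreated peaks (53.9%, 49.4 to 58.5), 60 of the 148 lost ones (40.5%, 32.6 to 48.9) and 205 of the gained ones (0.735%, 0.638 to 0.843). Of the 40 runs, 8 lay on chromosome 16 between 34 and 36 Mb. Because the runs are drawn from the untreated lists, leaving them out removes by construction a larger part of the kept and lost peaks than of the gained ones, and also lowers their overlap with untreated GR.

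Over the 40 runs, 260 of 320 untreated PR peaks were kept (81.2%, 76.5 to 85.4), compared with 222 of 310 outside them (71.6%, 66.2 to 76.6). Runs drawn from untreated PR peaks alone, with the same least number and gap, numbered 27 and held 257 of the 630 untreated PR peaks. The 5 of these 27 runs with the most untreated PR peaks are given one by one. At chr2:99524944-99555609, 27 of 27 untreated PR peaks were kept, inside 12 R5020 peaks. At chr16:34757296-34833794, 28 of 30 were kept, inside 15 R5020 peaks, and 12 gained peaks stood between them. At chr3:60473288-60492098, 18 of 21 were kept, at chr16:34412123-34505703 15 of 18, and at chr3:72310453-72326436 12 of 13. The MTVL list after R5020 held 4, 2, 0, 0 and 2 PR peaks in these runs and the untreated MTVL list held none. The input list held 0 peaks in each of them.

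Whether an untreated PR site was found again after R5020 went with its score. With the untreated list split by score into 5 classes of 126 peaks, in the highest class 121 of 126 peaks were kept (96.0%, 91.0 to 98.7). The share was 79.4% (71.2 to 86.1) in the next class, 73.8% (65.2 to 81.2) in the middle one, 65.9% (56.9 to 74.1) in the second lowest and 67.5% (58.5 to 75.5) in the lowest. Outside runs the share was 95.3% (88.5 to 98.7) in the highest class and 56.5% (43.3 to 69.0) in the lowest. Split by width instead, 92.1% (85.9 to 96.1) of the widest class and 61.9% (52.8 to 70.4) of the narrowest class were kept. Scores before and after hormone were only weakly related. Over the 179 kept sites outside runs where 1 peak met 1 peak, the scores had a Spearman rho of 0.15, given as a description.

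Of the 377 kept peaks after R5020, 13 reached 3100, and the 5 kept sites of highest score before hormone were not among them. With so few peaks at 3100, these 5 sites do not show how scores before and after hormone relate. The untreated PR peak of highest score, at chr5:139930069-139930832 (score 2866), had an R5020 counterpart of score 2053, was called for GR after Dex (1515) and without hormone (2354), and was not called in MTVL cells. The next, at chr5:142661446-142661656 (score 1872), had an R5020 counterpart of 1878 and was called for GR in all 3 A1-2 lists but not in MTVL cells. The third, at chr11:75946334-75947141 (1691), had an R5020 counterpart of 613, a weak GR Dex peak (133) and an MTVL PR peak after R5020 (467). The peaks at chr16:22206810-22207314 (1680) and chr11:59317927-59318834 (1296) had R5020 counterparts of 651 and 601, no GR peak in any list, and PR peaks of MTVL cells both after R5020 (354 and 320) and without hormone (140 and 132).

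The 13 kept sites that tied at a score of 3100 after R5020 covered a wide range of untreated scores, from 101 to 794, with a median of 146 beside 148 for the whole untreated list. Of these 13, 7 lay below the median of the untreated list and 6 above it. The first 5 in order of chromosome and position are named here. The peak at chr1:168600582-168601737 had a score of 3100 after R5020 and one of 117 in untreated cells. That at chr9:140505412-140509121 had 3100 after R5020 and 162 in untreated cells, and that at chr8:116850356-116851243 had 3100 after R5020 and 101 in untreated cells. The peaks at chr8:67025054-67027358 and chr2:99524358-99526813 had untreated counterparts of 533 and 794. The GR Dex scores at these 5 were from 758 to 3046. All 13 were called for GR after Dex and for PR in MTVL cells after R5020. So were nearly all gained peaks of 3100 or more (645 and 643 of 646).

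Outside runs, kept sites fell along a gradient from sites shared with GR to sites shared with the control line. Of the 59 kept untreated peaks with an untreated score of 500 or more, 57 lay at an R5020 PR peak of MTVL cells (96.6%, 88.3 to 99.6), 31 at an untreated PR peak of MTVL cells (52.5%, 39.1 to 65.7) and 7 at a GR Dex peak (11.9%, 4.91 to 22.9). Of the 112 with an untreated score under 200, 55 lay at an MTVL PR peak after R5020 (49.1%, 39.5 to 58.7), 3 at an untreated one (2.68%, 0.556 to 7.63) and 64 at a GR Dex peak (57.1%, 47.4 to 66.5). Those between lay in the middle, with 68.6%, 23.5% and 33.3% of 51. In the R5020 list the order for GR Dex ran the other way, since gained peaks outside runs lay at GR Dex peaks in 25.3% (24.5 to 26.1) at scores under 200 and in 92.9% (92.0 to 93.7) at 1000 or more. Outside runs, sites of high PR score before hormone thus seldom had a GR Dex peak, while gained sites of high PR score after hormone mostly had one. In runs, 16 of the 24 kept untreated peaks of 500 or more had a GR Dex peak (66.7%, 44.7 to 84.4). Over all regions 23 of 83 had one (27.7%, 18.4 to 38.6), compared with 224 of 289 under 200 (77.5%). The runs were drawn in part from untreated GR peaks, so the low share of 11.9% holds only outside them.

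**Figure D2:**
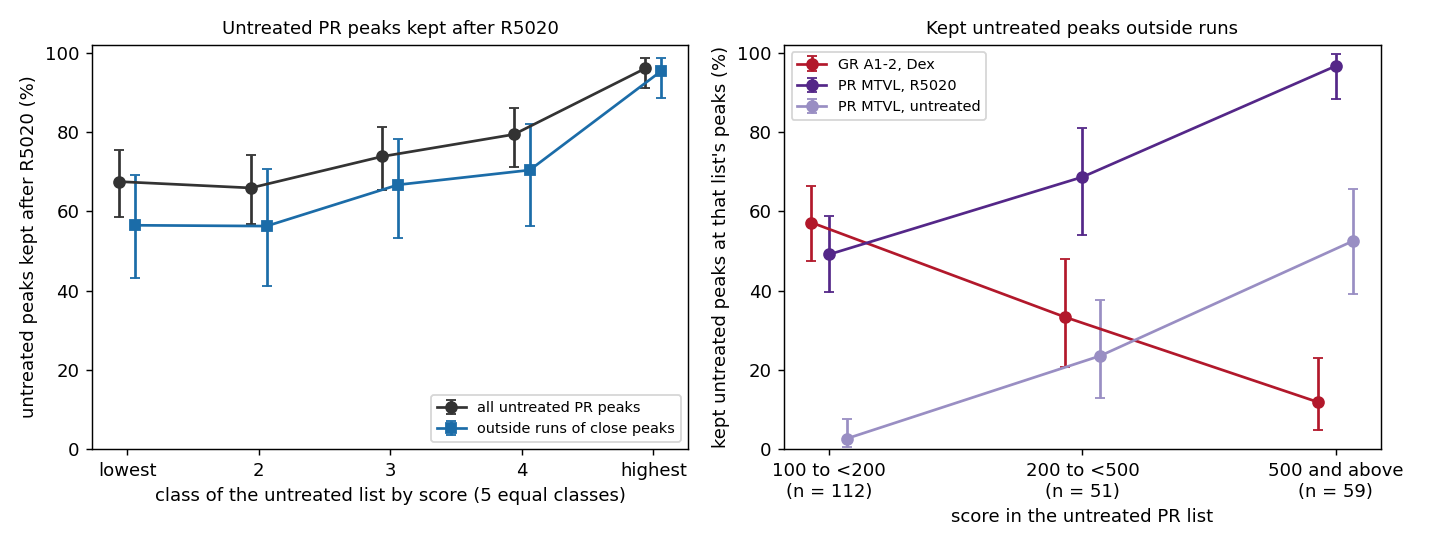
Left, the percent of untreated PR peaks kept after R5020 in each of 5 equal classes of the untreated list by score, for all peaks and outside runs of close peaks. Right, the percent of the kept untreated peaks outside runs that lay at peaks of 3 other lists, by untreated score. Error bars are 95% intervals over peaks. The GR Dex share goes from 57.1% to 11.9% and the MTVL PR R5020 share from 49.1% to 96.6% as the untreated score goes up.

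The classes were then set side by side at the other lists. GR after R5020 was called at 426 gained peaks (1.53%, 1.39 to 1.68), 161 kept ones (42.7%, 37.7 to 47.9) and 34 lost ones (22.97%, 16.5 to 30.6), beside 2.08% of all PR peaks after R5020 and 38.7% of all untreated PR peaks. Of the 1185 peaks of that GR list, 419 lay at a gained site (35.4%, 32.6 to 38.2), 153 at a kept one (12.9%, 11.1 to 15.0) and 28 at a lost one (2.36%). Gained peaks made up 98.7% of the PR peaks after R5020. By number more GR R5020 peaks thus lay at gained sites, while a kept peak had one more often than a gained peak. Untreated GR was called at 99 gained (0.355%, 0.289 to 0.432), 137 kept (36.3%, 31.5 to 41.4) and 14 lost peaks (9.46%, 5.27 to 15.4), beside 0.835% and 24.4%. Of the 394 untreated GR peaks, 108 lay at a gained site (27.4%, 23.1 to 32.1), 185 at a kept one (46.95%, 41.9 to 52.0) and 14 at a lost one. GR after Dex was called at 62.3% of the kept (57.2 to 67.2) and 22.3% of the lost peaks (15.9 to 29.9), beside 48.2% of all PR peaks after R5020 and 54.4% of all untreated ones. PR of MTVL cells after R5020 was called at 42.4% of the kept (37.4 to 47.6) and 15.5% of the lost peaks (10.1 to 22.4), beside 82.7% and 31.9%. Untreated PR of MTVL cells was called at 11.9% (8.84 to 15.6) and 2.70% (0.741 to 6.78), beside 0.796% and 9.68%. Gained peaks had the highest share at MTVL PR after R5020, kept peaks had the highest share at each of the other 4 lists, and lost peaks had the lowest shares at GR Dex and MTVL PR after R5020. Kept peaks were taken here from the R5020 list and lost ones from the untreated list, whose peaks were narrower. Taken from the untreated list, kept peaks had shares of 43.6% (GR R5020), 64.3% (GR Dex) and 29.0% (untreated GR). At MTVL PR their shares were 36.9% (R5020) and 11.8% (untreated).

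These shares moved when runs of close peaks were left out. Outside them 1.13% of the gained peaks, 18.0% of the kept (12.9 to 24.0) and 14.8% of the lost ones lay at a GR R5020 peak. The share at MTVL PR peaks after R5020 was 83.8% of the gained peaks (83.4 to 84.3), 65.0% of the kept (58.0 to 71.6) and 21.6% of the lost ones (13.5 to 31.6). At GR Dex peaks it was 47.7% of the gained (47.2 to 48.3), 41.5% of the kept (34.6 to 48.7) and 10.2% of the lost ones (4.78 to 18.5). Kept peaks thus lay at GR Dex peaks more often than gained ones over all regions and not outside runs. Inside runs, 54.6% of the gained peaks and 70.6% of the kept ones lay at a GR R5020 peak, and 5.85% and 16.9% at an MTVL PR peak after R5020.

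**Figure D3:**
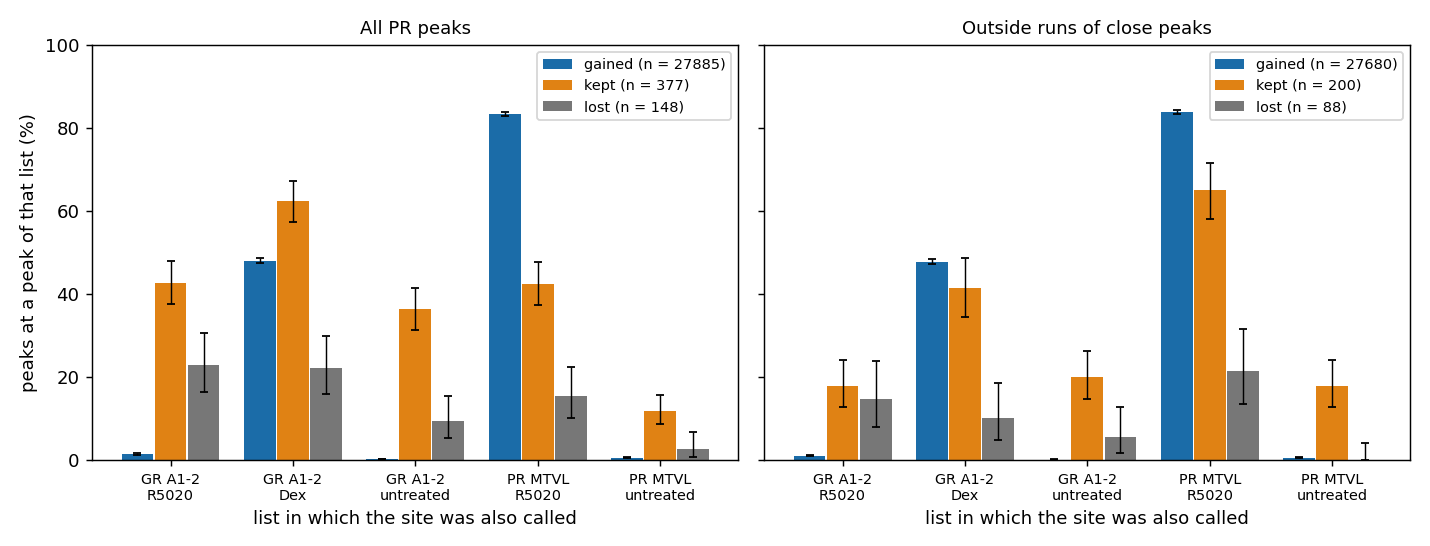
Percent of gained and kept PR peaks (R5020 list) and of lost PR peaks (untreated list) that lay at a peak of each of 5 other lists, over all regions (left) and outside runs of close peaks (right). Bars are shares and error bars are 95% intervals over peaks. Gained peaks stand highest at MTVL PR after R5020 (83.3% and 83.8%), and gained peaks stand below kept ones at GR R5020 (1.53% against 42.7% over all regions, and 1.13% against 18.0% outside runs).

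The gap between gained and kept sites at the MTVL list was also present among peaks of like score, up to 1000. Outside runs, 68.8% of the gained peaks (68.0 to 69.6) and 47.9% of the kept ones (36.1 to 60.0) with a score under 200 lay at an MTVL PR peak after R5020. From 200 to below 500 the shares were 90.9% (90.3 to 91.5) and 66.7% (54.8 to 77.1), and from 500 to below 1000 they were 98.1% (97.7 to 98.5) and 77.8% (57.7 to 91.4). At 1000 or more they were 99.5% of 3824 gained peaks and 96.0% of 25 kept ones (79.6 to 99.9). At GR R5020 peaks the order was the other way, with 0.639% of the gained and 16.4% of the kept peaks under 200, 0.669% of 8515 and 15 of 75 in the next class, 0.531% and 22.2% in the third, and 4.26% (3.64 to 4.95) and 3 of 25 (up to 31.2%) at 1000 or more. The intervals overlapped only in this last class. Peaks of like score were not of like width. Kept and gained peaks had median widths of 617 and 570 bp under 200, 927 and 653 bp in the next class, 1215 and 730 bp in the third, and 1755 and 846.5 bp at 1000 or more. A wider peak has more room to overlap another, and the part of width in these shares was not tested. At GR Dex peaks the share of gained peaks lay inside the interval of the kept ones in all 4 classes, most narrowly from 500 to below 1000, with 71.1% of the gained and 51.9% (31.9 to 71.3) of the kept peaks.

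**Figure D4:**
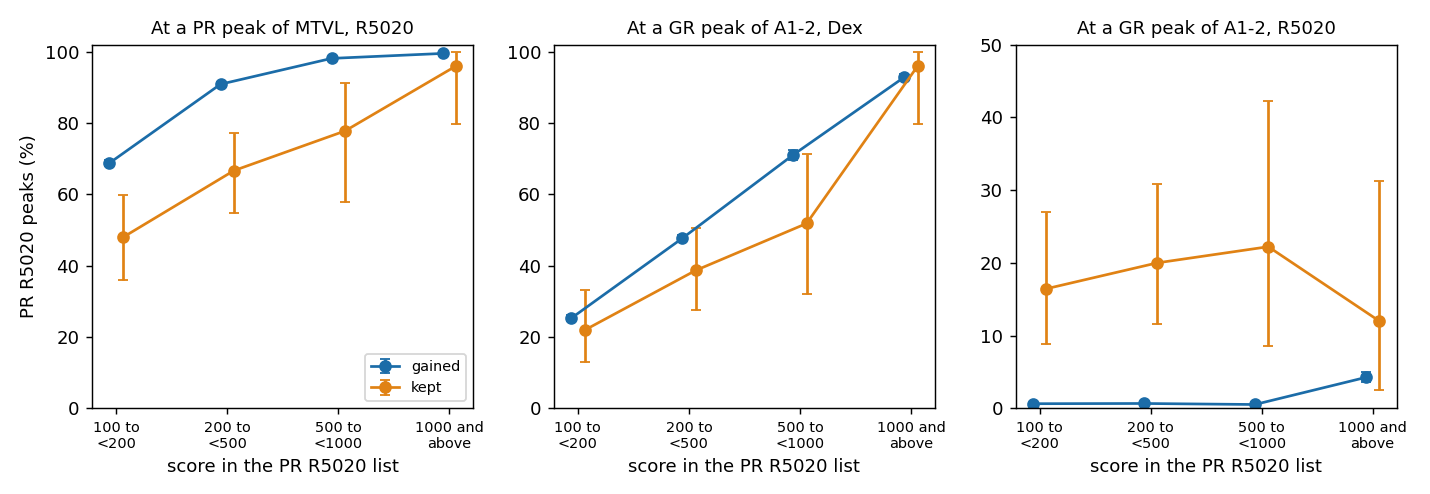
Percent of gained and kept PR peaks outside runs that lay at MTVL PR peaks after R5020 (left), GR Dex peaks (middle) and GR R5020 peaks (right), by the score in the R5020 list. Points are shares with 95% intervals over peaks, and the right panel has its own scale. At scores under 200 the MTVL shares are 68.8% for gained and 47.9% for kept peaks, and the GR R5020 shares are 0.639% and 16.4%.

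Lost sites had low scores and, outside runs, mostly no partner in the other lists. Their scores had a median of 125 (quartiles 110 and 166) in the untreated list, against 161 (121 and 349) for the kept untreated peaks, and 23 of 148 scored 200 or more (15.5%, 10.1 to 22.4), compared with 193 of 482 kept ones (40.0%, 35.6 to 44.6). Of the lost peaks, 69 were in none of the 5 other lists (46.6%, 38.4 to 55.0), compared with 29 of the 482 kept untreated peaks (6.02%, 4.07 to 8.53). Outside runs this was 51 of 88 (58.0%, 47.0 to 68.4) and 23 of 222 (10.4%, 6.68 to 15.1). The other 79 lost peaks had a partner in at least 1 of those lists, and in runs 42 of 60 did.

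Some lost peaks had a PR peak after R5020 close by. How often this follows from the density of R5020 peaks was not tested. The nearest PR peak after R5020 lay within 200 bp of 13 lost peaks, within 1 kb of 36 (24.3%) and within 5 kb of 65 (43.9%). In runs 30 of 60 lost peaks had one within 1 kb, and outside runs 6 of 88 did. Outside runs the median distance was 38010.5 bp. A PR peak after R5020 that had been left out for its overlap with input lay at 1 of the 148.

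The 5 lost peaks of highest score lay on chromosomes 16, 14, 17, X and 6. That at chr16:22309601-22310057 (score 739) was called in no other list, and its nearest R5020 peak was 55314 bp away. That at chr14:21078191-21078504 (402) had an R5020 PR peak in MTVL cells (318) and the nearest A1-2 peak after R5020 at 3160 bp. That at chr17:8042061-8042358 (392) lay in a run of close untreated peaks and was called in no other list. The peaks at chrX:47662025-47662278 (374) and chr6:28849028-28849374 (359) had MTVL PR peaks after R5020 (675 and 134), and the first of these lay 161 bp from an R5020 peak of A1-2 cells. GR was called at none of these 5 sites in any of the 3 GR lists.

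The classes were spread unevenly over the chromosomes. Chromosome 16 held 4.96% of the gained peaks, 23.3% of the kept and 37 of the 148 lost ones, and outside runs 4.40%, 9.00% and 10.2%. It also held 159 untreated PR peaks, 25.2% of that list, and 76.7% of them were kept (69.4 to 83.1). Its shares of kept and lost peaks were thus close to its share of the untreated list. Chromosome 6 held 5.27% of the gained, 7.16% of the kept and 14.9% of the lost peaks, and 55.1% of its 49 untreated peaks were kept (40.2 to 69.3), compared with 76.5% over all chromosomes. Outside runs, chromosome 6 from 25 to 30 Mb held 10 of the 88 lost peaks, 10 kept untreated ones and 40 gained ones, a window picked after its values were seen as the one of 5 Mb with the most lost peaks. The next windows held 3 lost peaks each. On chromosome 4, 1132 peaks were gained, 1 was kept and 1 was lost, and on chromosome 2 48 of 52 untreated peaks were kept (92.3%, 81.5 to 97.9). Copy number of the chromosomes, which differs along the genome of cancer lines, was not analysed here.

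**Figure D5:**
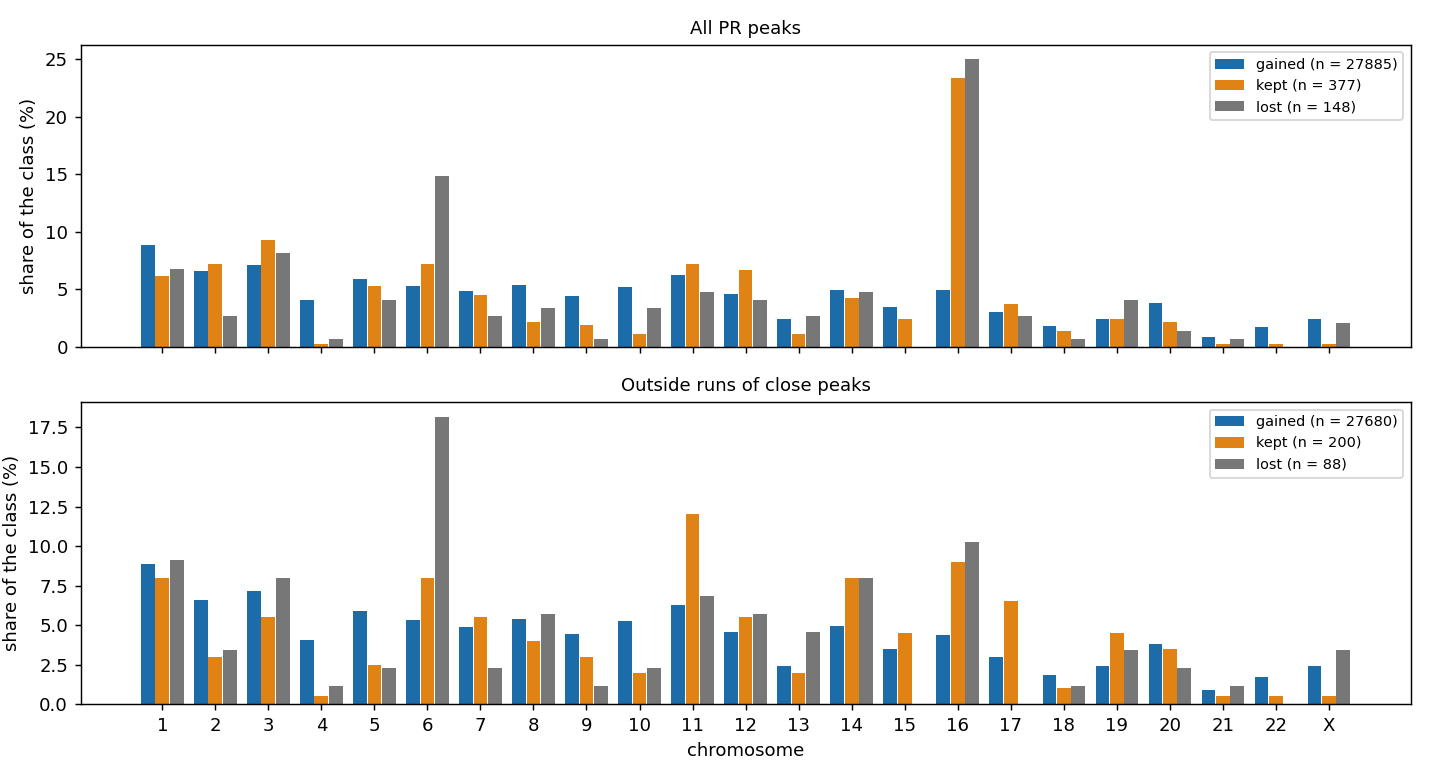
Share of the gained, kept and lost PR peaks on each chromosome, in percent of the class, over all regions (top) and outside runs of close peaks (bottom). Bars are counts of 1 library each, without error bars. Chromosome 16 holds 4.96% of the gained, 23.3% of the kept and 37 of the 148 lost peaks, beside 25.2% of all untreated PR peaks. Chromosome 6 holds 14.9% of the lost peaks, beside 7.78% of all untreated PR peaks.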

How the data were processed

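ChIP-seq peak lists of PR in A1-2 cells after R5020 and without hormone were compared. Tools included Bowtie 1.1.1, MACS 1.4.2 and bedtools, and the build was hg19, per the submitters' processing notes. Settings, read depth and the control for calling: not given in the sources used here. Every list deposited by the authors holds the peaks of 1 library with a score, taken as the MACS value that is 10 times the negative log10 of a peak's p, since the lowest score is 100 and the lists are named for a p of 1e-10.

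Peaks off chromosomes 1 to 22 and X were left out, as were 291 R5020 and 58 untreated PR peaks at input peaks. Overlap meant at least 1 bp. Named peaks were the 5 of highest score in each class (equal scores ranked by chromosome, then start) and the 5 runs with most gained or untreated peaks, and others are said to be chosen after seeing values. The planned placing of peaks at genes and motifs needed an hg19 genome or annotation and was not run. The members and lists were chosen with earlier results of these data known. Overlap steps were tested on simulated data and against bedtools 2.31.1. Python 3.11.15, numpy 2.4.6, scipy 1.17.1 and matplotlib 3.10.9 were used. Replicates were not available, and no test was made.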

Additional observations from a re-analysis of the deposited data

How the results depend on the processing

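No paired analysis was possible because each condition had 1 library. Of 144 values of 16 results under 9 alternatives, 64 stayed within the main 95% interval (within 1.5 times for numbers of peaks) and 80 moved further. Keeping peaks at input peaks moved none, and an overlap of 50% moved only the gained share at GR R5020 (1.38%). In the values below, shares at GR Dex, MTVL PR R5020, untreated GR and GR R5020 peaks are given for gained, kept and lost peaks in that order, and only those that moved.

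With 200 as the lowest score allowed for any list, the ratio of peak numbers was 71.8, gained peaks were 16460, 71.4% of untreated and 0.808% of R5020 peaks were kept, and the shares were 42.1%, 44.8% and 7.58% (GR Dex), 86.5% and 49.3% (gained and kept, MTVL), 0.146%, 26.1% and 1.52% (untreated GR), and 1.15%, 32.8% and 7.58% (GR R5020). With that score asked of the R5020 list alone, the ratio was 26.1, gained peaks 16206, kept shares 57.9% and 1.60%, and the others 64.1%, 71.1% and 30.6% (GR Dex), 94.1% and 24.2% (gained and lost, MTVL), 43.3% (kept, untreated GR) and 1.81% (gained, GR R5020). With lists of equal length the ratio was 1, 617 peaks were gained, 2.54% of untreated and 2.06% of R5020 peaks were kept, and the shares were 99.8%, 100% and 53.6%, then 99.7%, 100% and 30.1%, then 0.162%, 30.8% and 24.4%, then 18.2%, 23.1% and 39.1%. That setting keeps 13 R5020 peaks as kept ones, by its construction.

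Midpoints within 200 bp kept 44.0% of untreated and 0.945% of R5020 peaks, with 44.6% and 34.1% (gained and kept, GR Dex), 76.9% and 9.35% (gained and lost, MTVL), 0.279%, 25.8% and 20.4% (untreated GR), and 0.779%, 9.74% and 9.35% (GR R5020). Without runs the ratio was 89.9 and the kept shares 71.6% and 0.717%, with 41.5% and 10.2% (kept and lost, GR Dex), 83.8% and 65.0% (gained and kept, MTVL), 0.181% and 20% (gained and kept, untreated GR) and 1.13%, 18.0% and 14.8% (GR R5020). The next alternatives were chosen after seeing the data. Without chromosome 16 from 34 to 36 Mb, 1.12% of R5020 peaks were kept, with 56.2% and 15.8% (kept and lost, GR Dex), 83.9% and 50.5% (gained and kept, MTVL), 0.213% (gained, untreated GR) and 1.15% and 36.1% (gained and kept, GR R5020). Counting PR peaks within 1 kb as shared kept 82.2% and 1.67%, with 37.2% (kept, MTVL) and 1.36% and 16.1% (gained and lost, GR R5020). The cause of these moves was not tested beyond the construction of each setting. Depth, which is unknown, limits what counts as gained or lost, since weak peaks fall on either side of the calling threshold.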
